A study of Mus musculus with 30 samples.

Results

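The enzymes that write, copy and erase DNA methylation were followed in 8-cell mouse embryos depleted of YY1, a DNA-binding zinc finger protein, by knockdown of its gene Yy1. The genes are Dnmt1, Dnmt3a, Dnmt3b, Dnmt3l, Uhrf1, Tet1, Tet2, Tet3 and Tdg, 9 of the 49585 rows of the deposited expression table, and were chosen by symbol for the known function of their products. The series holds 30 mouse samples, and the table has columns for 4 of them, all RNA libraries of 8-cell embryos. The other 26 were not analysed here. Embryos of the strain BDF1 x BDF1 were cultured in KSOM, an embryo culture medium. Libraries came from total RNA, 2 after a control knockdown (control replicates 1 and 2) and 2 after knockdown of Yy1 with the reagent numbered 1 (Yy1 knockdown replicates 1 and 2). Only 1 knockdown reagent against Yy1 has expression values here. The labels do not say how many embryos made up a library or whether replicates were collected separately, so p-values measure only how these libraries vary, which may be technical. The comparison asks whether transcripts of the methylation machinery differ when YY1 is depleted.

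In mammals a methyl group on cytosine, mostly where cytosine precedes guanine (a CpG), is copied to the new DNA strand after replication by DNMT1, which is brought to half-methylated sites by UHRF1. DNMT3A and DNMT3B add new methylation, and DNMT3L, which has no catalytic activity of its own, stimulates both. The TET dioxygenases oxidise methylcytosine, and the glycosylase TDG removes the more oxidised forms so that base excision repair can restore cytosine. Between fertilisation and the blastocyst most methylation inherited from the gametes is lost, while imprinted regions keep theirs.

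Expression values are FPKM, which divide a gene's fragments by its length and by the sequencing depth. Steps between low values gave totals of 29302489 to 34429515 fragments per library. Pearson correlations of log2(FPKM + 1) across genes, which are not independent replicates, were 0.969 between controls, 0.966 between Yy1 knockdown libraries and 0.959 to 0.97 across groups. Libraries of 1 group therefore resembled each other no more than the most alike libraries of different groups. Yy1 itself stood at 77.7 and 71.2 FPKM in controls and at 5.89 and 7.98 FPKM after Yy1 knockdown (log2 fold change -3.26 ± 0.19 SE, limma adjusted p = 0.0556). All 10 markers of the preimplantation embryo were measured above the filter, led by Dppa3 at 1985 to 2128 FPKM. Of 18 markers of cumulus and granulosa cells, which surround the oocyte, 6 were at 0 in every library, and the sum of 121 and 100.6 FPKM in control and 100.6 and 99.3 FPKM after Yy1 knockdown was mostly Nr5a2, which the embryo itself uses. Nr5a2 had 114 and 94.3 FPKM in control and 90.2 and 90.8 FPKM after Yy1 knockdown, lower without overlap (limma adjusted p = 0.723). The granulosa genes Fshr, Inha and Lhcgr were among those at 0, though a listing at 0 can be a failed estimate, as described for Tdg below. Inhbb of the same list had 1.90 and 0.943 FPKM in control and 2.30 and 0.666 FPKM after Yy1 knockdown. Foxl2 and Cyp19a1 reached 0.247 and 0.196 FPKM, both in Yy1 knockdown replicate 2. Another gene of that list, Amhr2, the receptor of anti-Müllerian hormone, had 5.35 and 4.74 FPKM in control and 7.80 and 7.30 FPKM after Yy1 knockdown. It was higher without overlap, with a log2 difference of 0.50 ± 0.18 SE (limma adjusted p = 0.541, unadjusted p = 0.0362). Fshr, Inha, Lhcgr, Inhbb, Foxl2, Cyp19a1 and Amhr2 were picked out after their values were seen. Sperm markers summed to 2.93 and 5.23 FPKM in control and 3.16 and 6.49 FPKM after Yy1 knockdown, with 9 of 15 at 0 and Odf2 the highest. Blood cell markers summed to 2.99 and 1.86 FPKM against 3.76 and 5.04 FPKM, with 3 of 10 at 0. The highest of these, the macrophage-linked Cd68, had 1.43 and 1.14 FPKM in control and 2.33 and 3.04 FPKM after Yy1 knockdown, also without overlap (limma adjusted p = 0.546, unadjusted p = 0.0384). Cd68 was the only 1 of the 10 with a mean of at least 1 FPKM. The part of Amhr2, Nr5a2 and Cd68 in the results below was not tested.

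No member of the methylation machinery passed the test. Of the 9 genes, 8 had a mean of at least 1 FPKM and were tested with limma on log2(FPKM + 1) among 12120 genes, and 0 of the 8 had an adjusted p under 0.05, as did 0 of all genes (0% called). At an unadjusted p under 0.05 limma had 0 of the 8, against 1079 of all genes (8.90%). That count differs between settings: Tet2 had an unadjusted p under 0.05 in 4 of 13 alternatives and Tet3 in 1 of 13. In 5 of the 8 both Yy1 knockdown libraries lay outside the control values, 3 above (Dnmt1, Uhrf1 and Tet3) and 2 below (Dnmt3a and Tet2). Those 5 are 62.5% of the members tested. Of all genes tested 40.7% had no overlap between groups, 21.8% above and 18.9% below, and the difference between these shares was not tested. The fitted change was positive in 4 and negative in 4, with a median of -0.015 against 0.024 over all genes. In whole tissue or embryo libraries, fewer cells of a type and less RNA per cell cannot be told apart.

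**Figure D1:**
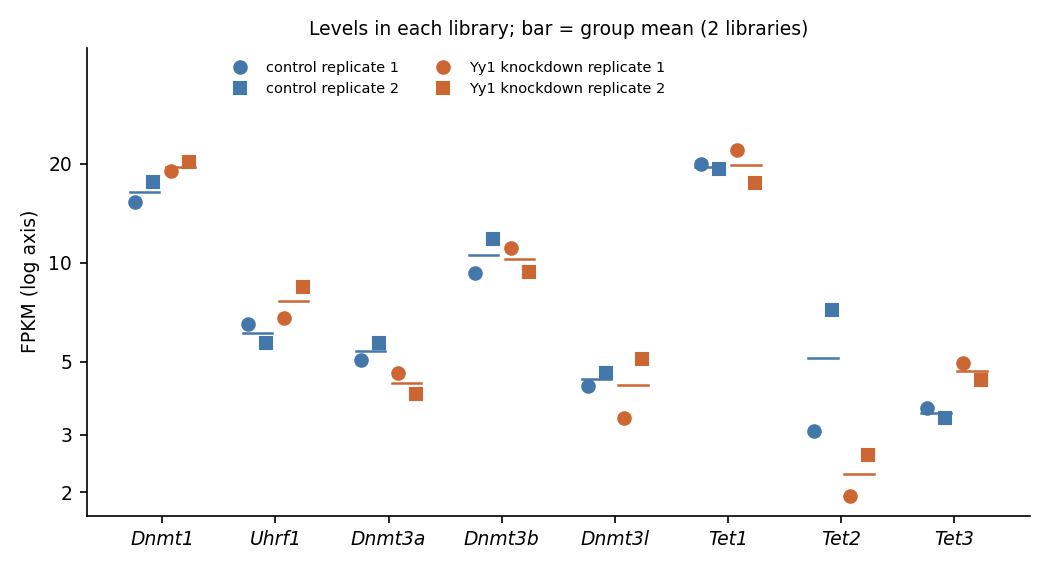
FPKM of 8 methylation enzymes on a log axis in each of the 4 libraries, blue for control and orange for Yy1 knockdown, circles for replicate 1 and squares for replicate 2, with a bar at each group's mean. Tet1 and Dnmt1 are the highest in both groups, and the 2 control libraries lie farthest apart for Tet2, at 3.06 and 7.16 FPKM. Tdg, listed at or near 0, is not drawn.

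The copying machinery is the pair Dnmt1 and Uhrf1. Because YY1 is a DNA-binding factor, the sequence before the first annotated start of each is shown, 250 bases from RefSeq in GRCm38.p6 (the assembly behind mm10), with the letters ATGGC, the reverse complement of the short YY1 core GCCAT, in capitals. Dnmt1 lies on the minus strand of chromosome 9 (20907206 to 20959888), and its stretch covers 20959889 to 20960138. Uhrf1 lies on the plus strand of chromosome 17 (56303337 to 56323486), and its stretch covers 56303087 to 56303336.
Dnmt1: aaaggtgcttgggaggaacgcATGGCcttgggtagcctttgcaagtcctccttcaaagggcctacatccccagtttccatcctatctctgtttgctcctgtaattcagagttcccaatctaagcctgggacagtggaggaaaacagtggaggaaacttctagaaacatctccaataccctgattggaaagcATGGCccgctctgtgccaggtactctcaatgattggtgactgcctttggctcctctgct
Uhrf1: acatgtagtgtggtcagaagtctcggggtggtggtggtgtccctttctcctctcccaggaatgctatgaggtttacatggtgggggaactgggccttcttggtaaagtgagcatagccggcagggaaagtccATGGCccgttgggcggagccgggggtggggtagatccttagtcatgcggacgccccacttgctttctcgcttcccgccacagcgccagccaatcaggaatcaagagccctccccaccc
The Dnmt1 stretch holds the letters at 229 and 59 bases before the start, and the Uhrf1 stretch at 118 bases before it. Each position is counted to the first base of the match. RefSeq lists 16 promoter windows for the 9 genes, each reaching from 250 bases before to 50 after a start. The short core GCCAT, searched on both strands, was in 6 of the 16 (37.5%), in windows of 5 genes, against 40.5% of all 32851 windows of that length. For Dnmt1 and Uhrf1 only the window at the first start, shown above, held it. The windows at the later starts, 20952623 and 20952979 for Dnmt1 and 56304313 for Uhrf1, did not. The longer core GCCATNTT, which contains the short one, was in 0 of the 16, against 6.05% of all windows. These are matches of letters, not binding sites, and the binding data of the series were not analysed here.

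Dnmt1 had 15.3 and 17.5 FPKM in controls and 18.9 and 20.2 FPKM after Yy1 knockdown, from 3875 to 4760 fragments. Both knockdown libraries were above both controls, by a margin smaller than the distance between the controls. The means were 16.4 ± 1.62 and 19.6 ± 0.918 FPKM (SD, n = 2 each), 1.19-fold higher. On the log2(FPKM + 1) scale, which understates the change of low genes, the difference was 0.24 ± 0.16 SE, with a 95% confidence interval from -0.15 to 0.64 and a limma adjusted p of 0.678. The table gives 1 value for the gene, so the oocyte and somatic forms of DNMT1, which come from different first exons, are not separated.

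Uhrf1 had 6.49 and 5.69 FPKM in control and 6.79 and 8.45 FPKM after Yy1 knockdown, from 761 to 1055 fragments. Yy1 knockdown replicate 1 lay only just above the higher control, and replicate 2 carried most of the difference. The log2 difference was 0.28 ± 0.20 SE (interval -0.21 to 0.77, limma adjusted p = 0.704). The log2 ratio of the pair within a library, Uhrf1 over Dnmt1, was -1.23 and -1.62 in control and -1.48 and -1.26 in Yy1 knockdown libraries, and these ranges overlap (two-sided exact permutation p = 1). With 2 libraries against 2 the smallest p this test can give is 0.333, so it cannot pass the threshold for any of the 10 ratios, shares and sums computed here. Adjusted after Benjamini-Hochberg over the 10, no p was below 0.667.

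Of the enzymes that add new methylation, Dnmt3b had the higher FPKM. Recovered fragments ran the other way, 699 to 965 for Dnmt3b over 2553 bases and 1945 to 2983 for Dnmt3a over 16642 bases. A common factor can be missed in this recovery, in a gene's fragments and length alike, so the order by fragments is uncertain. The order by FPKM depends on the authors' gene lengths. Dnmt3b (chromosome 2, 153649411 to 153687730) had 9.29 and 11.8 FPKM in control and 11.1 and 9.34 FPKM after Yy1 knockdown, and the groups overlapped entirely. Its log2 difference was -0.037 ± 0.20 SE (interval -0.53 to 0.45, limma adjusted p = 0.966). Dnmt3a (chromosome 12, 3801559 to 3914443) had 5.04 and 5.71 FPKM in control and 4.60 and 3.99 FPKM after Yy1 knockdown. Both knockdown values were below both controls, and the log2 difference was -0.27 ± 0.20 SE (interval -0.76 to 0.22, limma adjusted p = 0.713). Dnmt3b thus made up 64.8% and 67.4% of the summed FPKM of Dnmt3a and Dnmt3b in control libraries and 70.7% and 70.1% in Yy1 knockdown libraries, a difference of 4.28 percentage points without overlap (two-sided exact permutation p = 0.333, the smallest possible). Dnmt3a overlaps the noncoding gene Dnmt3aos, which was listed at 0 to 0.0839 FPKM.

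Dnmt3l (chromosome 10, 78042287 to 78063622), the cofactor without catalytic activity that oocytes need to methylate imprinted regions, had 4.23 and 4.60 FPKM in control libraries. The Yy1 knockdown libraries stood on either side of these, at 3.38 and 5.08 FPKM, from 344 and 445 fragments. Its log2 difference was -0.069 ± 0.24 SE (interval -0.67 to 0.53, limma adjusted p = 0.95). The spread between the 2 knockdown libraries, 1.504-fold, was the widest of the 8 tested members in that group. Dnmt3l overlaps Aire, listed at 0 to 0.315 FPKM.

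**Figure D2:**
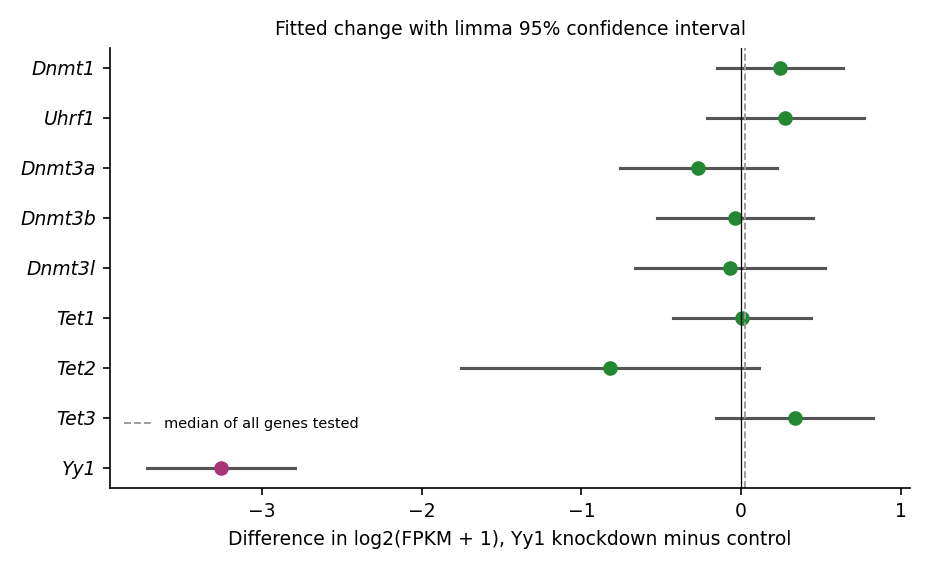
Difference in log2(FPKM + 1) between Yy1 knockdown and control for 8 methylation enzymes and for Yy1, as points with limma 95% confidence intervals, and the median of all genes tested as a dashed line. Every interval of the 8 enzymes spans 0, from the narrowest for Dnmt1 to the widest for Tet2, while the interval of Yy1 lies between -3.72 and -2.80.

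Tet1 led the TET family in every library. It is the TET gene known for high levels in embryonic stem cells, lies on chromosome 10 (62804570 to 62887469) and had 19.9 and 19.2 FPKM in control and 22.1 and 17.5 FPKM after Yy1 knockdown, from 7530 to 11057 fragments. The knockdown libraries lay on either side of the controls. Its log2 difference was 0.0060 ± 0.17 SE, and the interval from -0.43 to 0.44 corresponds to 0.744-fold to 1.36-fold of FPKM + 1 (limma adjusted p = 0.994).

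Tet2 gave the largest difference of the 8 and also the least even controls. Tet2 (chromosome 3, 133463677 to 133545136), best known from blood-forming cells, had 3.06 and 7.16 FPKM in controls, from 1780 and 3796 fragments, and 1.95 and 2.60 FPKM after Yy1 knockdown, from 1120 and 1285 fragments. Both knockdown values were below both controls, but control replicate 2 was 2.34-fold above control replicate 1, more than the 1.18-fold step from control replicate 1 to the nearer knockdown library. The means were 5.11 ± 2.90 and 2.27 ± 0.46 FPKM (SD, n = 2 each), 2.25-fold lower after knockdown, and the log2 difference was -0.82 ± 0.37 SE (interval -1.76 to 0.11, limma adjusted p = 0.598, unadjusted p = 0.0739). Without control replicate 2 the log2 difference was -0.32, and without control replicate 1 it was -1.33, so the size of the difference depends on the choice of control library. Among genes with a mean of 3 to 25 FPKM, 3.93% had a larger absolute log2 difference than Tet2. Tet2 lies near the low end of that range and was singled out as the largest of the 8, so this share is not a p-value.

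Tet3 (chromosome 6, 83362373 to 83457208), the TET enzyme that the oocyte supplies to the zygote, had 3.62 and 3.38 FPKM in control and 4.95 and 4.41 FPKM after Yy1 knockdown, from 1770 to 2815 fragments. Replicates lay closer together than the groups. The means were 3.50 ± 0.17 and 4.68 ± 0.381 FPKM (SD, n = 2 each), 1.34-fold higher, and the log2 difference was 0.34 ± 0.20 SE (interval -0.16 to 0.83, limma adjusted p = 0.668).

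Shares within the TET family do not depend on scaling between libraries. Tet1 made up 74.9% and 64.6% of the summed TET FPKM in control and 76.2% and 71.4% in Yy1 knockdown libraries, with overlap (two-sided exact permutation p = 0.667). Tet3 took 13.6% and 11.3% in control and 17.1% and 18.01% in Yy1 knockdown libraries, a difference of 5.07 percentage points without overlap (two-sided exact permutation p = 0.333). Tet2 took 11.5% and 24.1% against 6.73% and 10.6%, again without overlap (two-sided exact permutation p = 0.333). The difference in the Tet2 share, -9.13 percentage points, was -2.86 without control replicate 2 and -15.4 without control replicate 1. The family sum overlapped, at 26.6 and 29.8 FPKM in control and 29.0 and 24.5 FPKM after Yy1 knockdown (two-sided exact permutation p = 0.667).

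Among the 3 catalytic methyltransferases, Dnmt1 held 51.6% and 50.1% of the summed FPKM in control and 54.7% and 60.3% in Yy1 knockdown libraries, 6.67 percentage points more on average and without overlap (two-sided exact permutation p = 0.333). This difference was 3.86 percentage points without Yy1 knockdown replicate 2. The summed FPKM of the 3 was 29.6 and 35.04 in control and 34.6 and 33.6 in Yy1 knockdown libraries and overlapped (two-sided exact permutation p = 1). The log2 ratio of this sum to the TET sum was 0.16 and 0.24 in control and 0.26 and 0.46 in Yy1 knockdown libraries (two-sided exact permutation p = 0.333). The groups do not overlap, but the lower knockdown value lies just above the higher control, and the difference of 0.16 was 0.063 without Yy1 knockdown replicate 2.

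**Figure D3:**
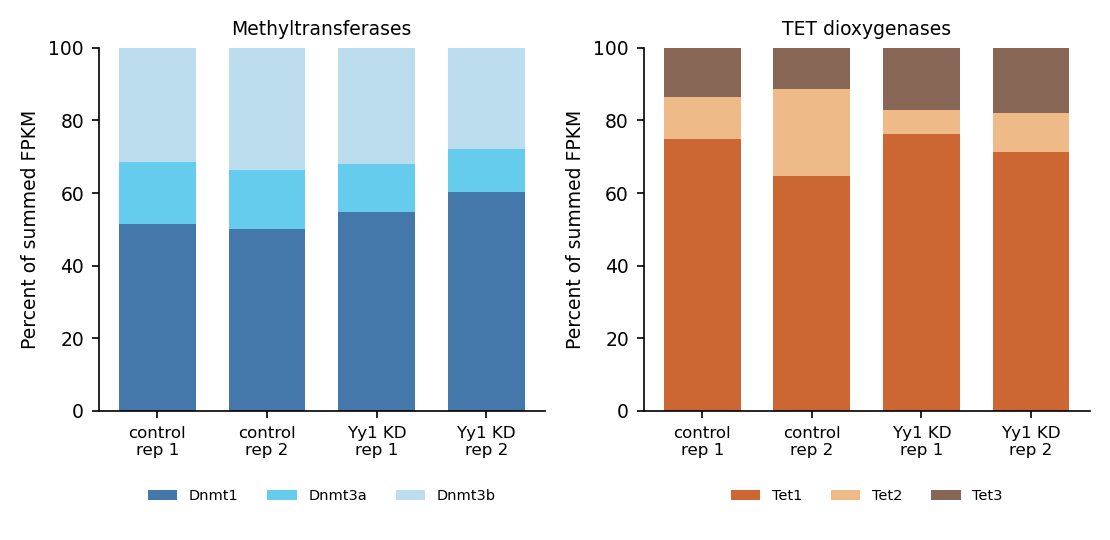
Stacked bars of the percent of summed FPKM in each of the 4 libraries, for Dnmt1, Dnmt3a and Dnmt3b on the left and for Tet1, Tet2 and Tet3 on the right. Dnmt1 holds 50.1% to 60.3% on the left and Tet1 64.6% to 76.2% on the right, and the wide Tet2 band of control replicate 2 is 24.1%.

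Ordered by FPKM in the control libraries, the members ran from Tet1 and Dnmt1 over Dnmt3b, Uhrf1, Dnmt3a and Dnmt3l to Tet3. Uhrf1 and Dnmt3a overlapped in their control values, and the wide range of Tet2 overlapped those of Uhrf1, Dnmt3a, Dnmt3l and Tet3. The other neighbours in this order did not overlap. In the Yy1 knockdown libraries Tet1 and Dnmt1 overlapped, as did Dnmt3l, Tet3 and Dnmt3a with each other, and Tet2 was lowest. Across the 4 libraries the 8 members stood between the 18.8th and the 77.0th percentile of the genes tested. The lengths that make the fragments whole numbers were 14710 to 16870 bases for Tet1, Tet2, Tet3 and Dnmt3a, 7377 bases for Dnmt1 and 2553 bases for Dnmt3b. A long gene model that holds little-used exons lowers FPKM, so the order between genes depends on the authors' gene models, not given in the sources used here.

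Tdg (chromosome 10, 82629814 to 82650799) stood apart from the other 8. It was listed at 0 FPKM in 3 libraries and at 0.00593 FPKM in control replicate 2, the value of 1 fragment over a length of 5374 bases. At that length 3 fragments, the limit that a count of 0 allows, would be 0.0162 to 0.0191 FPKM. The pseudogene copies Tdg-ps and Gm9855, looked up after the values of Tdg were seen, were at 0 in all 4 libraries. No label or header states how reads that map to several places were counted. Gapdh, a glycolytic gene of nearly every cell that also has many copies, stood at only 0.148 to 0.33 FPKM. A listing at 0 may therefore be a failed estimate, and no statement on expression of Tdg is made.

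Genes around this machinery were read from 7 lists of 103 genes in all, each gene counted once per list. None of the 81 genes tested in the 7 lists passed over all genes with limma. Of these 81, those with an unadjusted limma p under 0.05 were Zfp445, Nsd1, Ehmt1, Parp2, Polb and Tuba3a. For the counts that follow, the background is the share of all genes with an unadjusted p under 0.05, 8.90% (4.22% higher, 4.69% lower).

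Transcripts of methyl-CpG binding proteins and their relatives were mostly low. Of 9 listed, 4 were tested, 2 higher and 2 lower by fitted change, with a median of -0.046. Mbd3, a subunit of the NuRD repressor complex, was the most abundant, at 39.6 and 52.4 FPKM in control and 41.5 and 52.1 FPKM after Yy1 knockdown. Mbd4, a glycosylase that also removes mismatched thymine, had 2.44 and 2.78 against 2.25 and 2.38 FPKM. Mbd1 had 1.61 and 0.332 against 1.56 and 1.82 FPKM, and Zbtb33, the gene of the methyl-CpG binder Kaiso, 1.76 and 1.12 against 1.38 and 0.826 FPKM.

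Partners of methylation upkeep and imprint protection included the gene with the smallest p around the pathway. Of 16 listed genes 15 were tested, 11 higher and 4 lower by fitted change, with a median of 0.043, and 1 lower gene had an unadjusted p under 0.05. That gene was Zfp445, whose zinc finger protein protects imprinted regions, with 13.6 and 16.05 FPKM in control and 5.91 and 8.52 FPKM after Yy1 knockdown. Its log2 difference was -0.96 ± 0.22 SE (interval -1.51 to -0.41, limma adjusted p = 0.462), 0.486-fold by the means, with no overlap. Zfp57, whose product has the same known role, had 9.14 and 8.49 FPKM in control and 21.0 and 9.92 FPKM after Yy1 knockdown, and replicate 1 of the knockdown carried the difference (limma adjusted p = 0.629). Cdca7, which activates the remodeler HELLS for methylation, had 14.2 and 14.0 against 18.2 and 15.9 FPKM (limma adjusted p = 0.675). Dppa3, whose product holds UHRF1 back from chromatin in the oocyte, had 2099 and 1985 against 2128 and 2059 FPKM, overlapping groups with a control mean 124.5 times that of Dnmt1.

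Histone enzymes that guide new methylation had 10 of 10 listed genes tested, 5 in each direction, with a median of -0.049. An unadjusted p under 0.05 was found for 2, both lower. Nsd1, a histone methyltransferase whose mark recruits DNMT3A, had 21.7 and 25.9 FPKM in control and 15.6 and 14.0 FPKM after Yy1 knockdown, without overlap. Its log2 difference was -0.65 ± 0.17 SE (interval -1.07 to -0.23, limma adjusted p = 0.5). Ehmt1, a subunit of the G9a histone methyltransferase complex, had 15.2 and 17.0 against 12.2 and 11.7 FPKM (limma adjusted p = 0.559). Setd2, the most abundant of the list and also a writer of a mark read by DNMT3 enzymes, had 78.7 and 84.2 against 70.04 and 72.6 FPKM. Kdm1b, a demethylase that oocytes need to set imprints, had 4.24 and 5.46 against 5.84 and 7.12 FPKM.

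Regulators of the TET enzymes and suppliers of their cosubstrate had 11 of 15 genes tested, 6 higher and 5 lower, with a median of 0.030 and none with an unadjusted p under 0.05. Ogt, the glycosyltransferase that binds TET proteins, had 5.36 and 7.95 FPKM in control and 3.87 and 4.77 FPKM after Yy1 knockdown. The ubiquitin ligase scaffolds Cul4a and Cul4b had 2.76 and 3.59 against 1.87 and 1.69 FPKM, and 27.1 and 25.8 against 23.9 and 21.3 FPKM. Both knockdown values of each of these 3 lay below both controls, while Vprbp (now Dcaf1), named after its values were seen, lay above them at 37.8 and 38.6 against 37.6 and 36.5 FPKM. Of the 11 genes 4 had no overlap (36.4%), against 40.7% of all genes. Their adapter Ddb1 was the most abundant of the list, at 151 and 169 against 161 and 177 FPKM.

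Base excision repair, the step after TDG, had 12 of 17 genes tested, 4 higher and 8 lower, with a median of -0.25 against 0.024 over all genes. Of the 12, 2 had an unadjusted p under 0.05, both lower. Parp2, which senses strand breaks, had 19.5 and 23.9 FPKM in control and 15.0 and 15.995 FPKM after Yy1 knockdown (limma adjusted p = 0.548). Polb, the repair polymerase, had 12.0 FPKM in both controls and 7.75 and 9.45 FPKM after knockdown (limma adjusted p = 0.559). Parp1, the most abundant, had 91.8 and 96.7 against 97.6 and 98.4 FPKM.

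Enzymes that supply the methyl donor had 16 of 20 genes tested, 5 higher and 11 lower, with a median of -0.099 and none with an unadjusted p under 0.05. Bhmt, which makes methionine from betaine and was the most abundant, had 129.5 and 124.5 FPKM in control and 110.3 and 101.6 FPKM after Yy1 knockdown. Its relative Bhmt2 had 11.1 and 10.5 against 8.77 and 7.12 FPKM. Mthfd2, a mitochondrial folate enzyme, had 3.14 and 3.33 against 6.19 and 4.04 FPKM. The limma adjusted p of these 3 lay between 0.593 and 0.616.

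Germline genes, many of which somatic cells keep silent by promoter methylation, had 13 of 16 genes tested, 3 higher and 10 lower, with a median of -0.23. Of the 13, 1 had an unadjusted p under 0.05. This was the testis tubulin gene Tuba3a, with 0.597 and 1.25 FPKM in control and 2.70 and 2.99 FPKM after Yy1 knockdown (log2 difference 1.02 ± 0.28 SE, limma adjusted p = 0.505). Tubulin genes have close copies, so its value is uncertain. Asz1 had 1.91 and 2.98 against 1.34 and 0.663 FPKM, and Mael, which acts in the piRNA pathway, 3.86 and 3.66 against 2.54 and 2.86 FPKM. Sycp1, a protein of the synaptonemal complex of meiosis and the highest of the list, had 13.03 and 10.5 against 9.15 and 9.51 FPKM. Oocytes express some of these genes too, and maternal transcripts cannot be told apart from embryonic ones here.

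**Figure D4:**
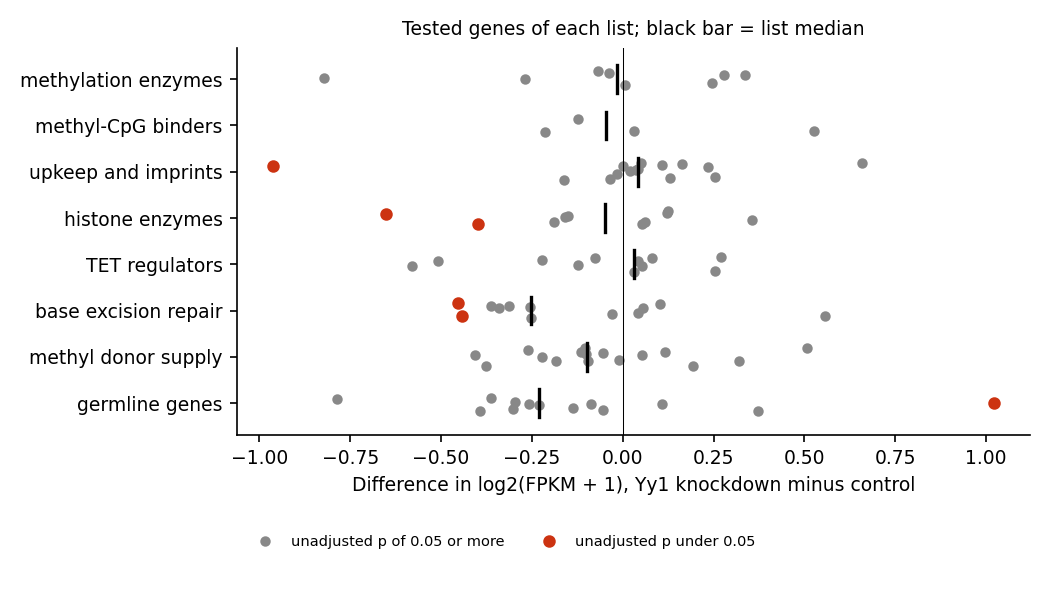
Difference in log2(FPKM + 1), Yy1 knockdown minus control, of each tested gene in 8 lists, with the list median as a black bar and genes with an unadjusted limma p under 0.05 in red. The 8 methylation enzymes in the top row hold no red point, and the red points elsewhere are Zfp445, Nsd1, Ehmt1, Parp2, Polb and Tuba3a.

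With 2 libraries a group, the test leaves room for moderate differences. The 95% confidence intervals of the 8 members reach 0.40 (Dnmt1) to 0.93 (Tet2) to either side on the log2 scale. Apart from Tet2, the intervals allow differences of up to 1.78-fold of FPKM + 1 in one direction or the other, so a p above the threshold does not show equal levels. Leaving out 1 library at a time kept the sign of Dnmt1, Uhrf1, Dnmt3a, Tet2 and Tet3 and turned that of Dnmt3b, Dnmt3l and Tet1, the 3 members with overlapping groups. For the 5 members without overlap the sign could not turn, whichever library was left out. Their kept sign restates the lack of overlap and is no further support. The size moved more: Dnmt1, at 0.24 with all libraries, was 0.15 without control replicate 1. Uhrf1, at 0.28, was 0.14 once Yy1 knockdown replicate 2 was left out and stood at 0.42 with replicate 1 of that group left out instead.

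**Figure D5:**
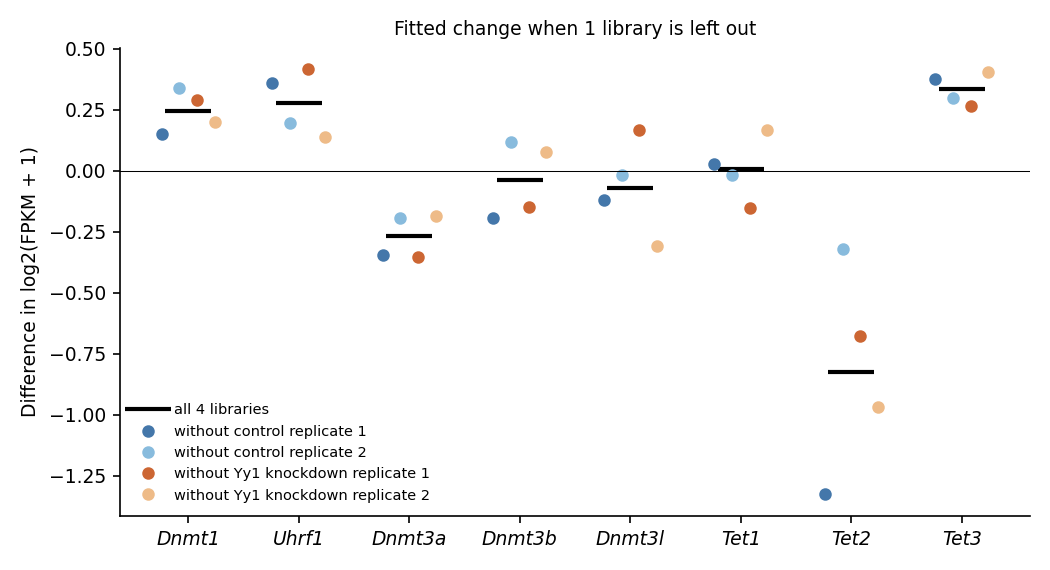
Fitted difference in log2(FPKM + 1) for 8 methylation enzymes with all 4 libraries (black bar) and with each library left out in turn (points). Tet2 moves the most, from -0.32 without control replicate 2 to -1.33 without control replicate 1, while Tet3 stays between 0.27 and 0.40.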

How the data were processed

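The authors deposited FPKM for 4 libraries; the kit was a stranded SMART-Seq one per the labels' protocols. For the mm10 build, and not tied to any assay, the submitters' processing notes list HISAT2 2.2.1, Bowtie2 2.4.3, featureCounts, bedtools, Trim Galore 0.6.7, R 4.0.3 and SAMtools 1.4.1. Annotation, strand setting and multi-mapped reads: not given in the sources used here. Groups and replicate numbers come from the titles. Rows with a mean of at least 1 FPKM were tested on log2(FPKM + 1) with limma 3.58.1 in R 4.3.3 (group alone, mean-variance trend), adjusted after Benjamini-Hochberg at 0.05. Steps between values gave back fragment counts, whole within 0.02 fragments in 12118 of 12120 genes; a common factor can be missed, and depth limits counting error only. The fit and the recovery were tested on simulated data. Members and lists were chosen with earlier results of these data known. Named genes are all members and, per list, the 3 with the smallest p and the 1 with the highest control mean; for marker lists, the highest mean. One gene that this rule names is not reported here. Older symbols were matched through RefSeq for 4 list genes. All 9 members matched a RefSeq promoter window. Alternatives were a pseudocount of 0.1, other filters (none, 5 FPKM), scalings and moderation, a replicate block, protein-coding genes alone, limma-voom on recovered fragments, a threshold of 0.1, and leaving out each library. Protein sequences were not used here.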

Additional observations from a re-analysis of the deposited data

How the results depend on the processing

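None of the 8 tested members passed the threshold of 0.05 under any alternative run, with adjusted p from 0.325 (Tet2, limma-voom) upward. Unadjusted limma p-values under 0.05 were found for Tet2 with limma-voom (0.0114), protein-coding genes alone (0.0364) and a replicate block (0.0360), and for Tet3 with limma-voom (0.0371). In these settings 9.79% to 12.4% of the genes tested in each had one, the highest share being that of protein-coding genes alone. Tet2 also had one without control replicate 1, a fit with 1 control library left. The filter of 5 FPKM removed Dnmt3a, Dnmt3l, Tet2 and Tet3. Over all genes, 0 were called in the fit described and 4 with that filter (Yy1, Zfp42, Baz1a and Gm13230), 1 with robust eBayes (Yy1), 14 among protein-coding genes alone, 13 with limma-voom on recovered fragments and 3 at an adjusted p of 0.1 (Yy1, Zfp42 and Gm13230); no member was among them. The few names were looked up after the counts. Median-ratio scaling gave Tet1 -0.038 in place of 0.0060. Leaving out each library gave log2 differences of -0.19 to 0.12 for Dnmt3b, -0.31 to 0.17 for Dnmt3l and -0.15 to 0.17 for Tet1, changes in the Tet1 share of -1.09 to 9.20 percentage points, and changes in the log2 ratio of Uhrf1 to Dnmt1 of -0.14 to 0.26. Such fits leave 1 library in a group, which is assumed to vary like the other group. With a replicate block 0 genes were called, and the adjusted p of Tet2 was 0.487. Deviations of same-numbered libraries correlated at 0.0994, and with 2 pairs the numbers are not taken to pair the samples.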
